A study of Rattus norvegicus with 4 samples.

Results

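The genes described here are the early growth response factors Egr1, Egr2, Egr3 and Egr4 and their corepressors Nab1 and Nab2, 6 of the 12922 genes that the array measured. Their probe sets were taken by name: every probe set whose annotation gave exactly 1 gene symbol, that symbol being a member's, which made 8 of 23707 probe sets. Egr2 and Egr4 had 2 probe sets each and the other members 1 each. RNA came from cultured rat aortic smooth muscle cells, which form the contractile layer of the artery wall. All cultures were plated in 10% serum for 24 h and then kept without serum and insulin for 72 h. The PDGF-BB group was given platelet-derived growth factor BB, which makes these cells divide and migrate, for 3 h at 30 ng/mL, and the vehicle group was given the carrier of that factor, bovine serum albumin (0.2%) in acetic acid (10 mM), for the same time. Each group had 2 Affymetrix arrays, named here vehicle 1 and 2 and PDGF-BB 1 and 2. Rat strain, sex and passage, and whether the 2 arrays of a group came from different cultures, are not stated in the labels, so the tests rest on a spread between arrays that may be technical.

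Egr factors are zinc-finger proteins that bind GC-rich promoter elements. Their genes are immediate early genes: growth factors and serum switch them on through ERK kinases, which act on ternary complex factors bound with serum response factor (SRF) at CArG boxes, and the transcripts usually last only a short time. In injured arteries EGR1 (Zif268, Krox-24) is known as an activator of growth factor and tissue factor genes in smooth muscle. EGR2 (Krox-20) is best known for Schwann cell myelination and hindbrain patterning, EGR3 for muscle spindles and lymphocytes, and EGR4 (NGFI-C) for the brain and testis. NAB1 and NAB2 have no DNA-binding domain of their own. They dock on an inhibitory domain that EGR1, EGR2 and EGR3 carry and EGR4 lacks, and recruit the NuRD remodelling subunit CHD4. Nab2 is itself described as an EGR target, which closes a feedback loop.

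Promoters are shown first, as sequences, and whether their motifs bear on the responses was not tested. The probe sets of Egr1 and Egr2 and 1 of the 2 of Egr4 were called higher with PDGF-BB. Those of Egr3, Nab1 and Nab2 did not pass the test. A window from 250 bases before to 50 bases after the annotated start was held for 5 of the 6 members, Egr3 being the other, in the RefSeq sequences of the rat build GRCr8. The windows were searched on both strands for 3 motifs. These were the CArG box CCWWWWWWGG (the SRF site, W being A or T), TGACG (the core of the cyclic AMP response element, CGTCA on the other strand) and GCGNGGGCG (an EGR site, N being any base). Capitals mark every exact match, and no matches overlapped. Sites that depart from a pattern at any base were not searched for. The 4 windows with a match are at chr18:26736828-26737127 (plus strand) for Egr1, chr20:21054392-21054691 (minus) for Egr2, chr4:119607768-119608067 (minus) for Egr4 and chr9:56545392-56545691 (plus) for Nab1, each written 5′ to 3′ along the gene.
Egr1: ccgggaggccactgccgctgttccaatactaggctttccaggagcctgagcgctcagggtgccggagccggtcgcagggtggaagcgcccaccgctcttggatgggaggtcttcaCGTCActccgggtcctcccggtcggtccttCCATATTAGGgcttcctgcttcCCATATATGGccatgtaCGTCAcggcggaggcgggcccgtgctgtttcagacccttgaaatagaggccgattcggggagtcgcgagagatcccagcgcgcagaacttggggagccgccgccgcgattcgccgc
Egr2: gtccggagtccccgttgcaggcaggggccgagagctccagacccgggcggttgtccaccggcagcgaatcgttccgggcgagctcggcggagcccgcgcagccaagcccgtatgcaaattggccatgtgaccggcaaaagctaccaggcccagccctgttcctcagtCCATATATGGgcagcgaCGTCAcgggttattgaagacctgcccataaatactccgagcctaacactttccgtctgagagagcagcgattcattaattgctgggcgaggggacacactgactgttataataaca
Egr4: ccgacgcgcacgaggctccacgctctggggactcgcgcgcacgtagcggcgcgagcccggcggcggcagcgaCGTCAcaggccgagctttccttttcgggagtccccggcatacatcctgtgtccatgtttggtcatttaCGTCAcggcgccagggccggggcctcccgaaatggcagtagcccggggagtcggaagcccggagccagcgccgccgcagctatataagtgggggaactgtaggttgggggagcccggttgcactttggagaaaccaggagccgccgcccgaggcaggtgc
Nab1: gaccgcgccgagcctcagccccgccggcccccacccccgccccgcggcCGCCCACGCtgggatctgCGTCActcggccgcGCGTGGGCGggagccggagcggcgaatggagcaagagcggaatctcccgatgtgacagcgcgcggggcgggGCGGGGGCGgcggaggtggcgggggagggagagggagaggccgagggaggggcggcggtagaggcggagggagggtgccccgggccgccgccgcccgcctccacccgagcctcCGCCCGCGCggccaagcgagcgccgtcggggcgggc

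The Egr1 window held 2 CArG boxes and 2 TGACG cores, that of Egr2 1 of each, and that of Egr4 no exact CArG box and 2 TGACG cores. Among all 27457 promoter windows of this length, 1.64% held a CArG box, 0.0255% (7 windows) held at least 2, and 22% held a TGACG core. EGR sites were matched in none of these Egr windows. The Nab1 window held 4 of them and 1 TGACG core, while the Nab2 window, at chr7:65389206-65389505 (minus), had no exact match to any of the 3 motifs. An EGR site was found in 5.29% of all windows. A match describes letters in this window and not a bound factor. The lack of an exact match does not mean that no related site is there.

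**Figure D1:**
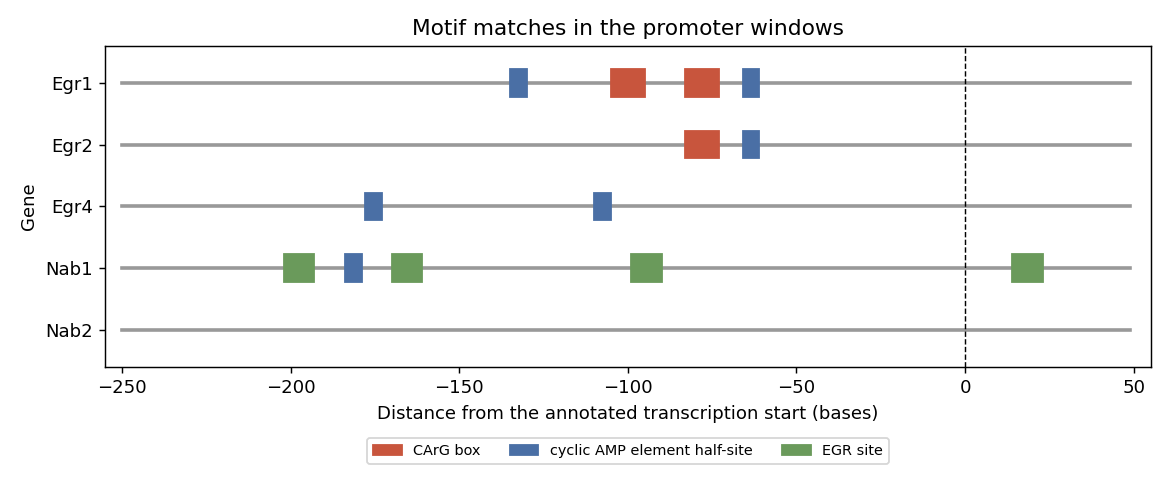
Exact matches to the 3 motifs in the promoter windows of Egr1, Egr2, Egr4, Nab1 and Nab2, by distance in bases from the annotated transcription start (dashed line). The CArG box nearest the start lies 83 to 74 bases before it in both Egr1 and Egr2, and the 4 EGR sites are in Nab1.

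The CArG box nearest the start and the TGACG core after it stood at the same places in Egr1 and Egr2, from 83 to 62 bases before the start. Of the 22 bases, 18 were identical. Most of these lie within the motifs at the ends of the stretch, where the searched patterns fix or restrict the letters. The count is therefore no measure of likeness beyond the motifs. In 3 of the 27457 windows a TGACG core began exactly 17 bases after the first base of a CArG box, and the third was that of Dusp5, a phosphatase that inactivates ERK. This spacing was noticed in the sequences and is outside the rule for named genes. The stretches are at chr18:26736995-26737016 (plus) for Egr1, chr20:21054503-21054524 (minus) for Egr2 and chr1:262543702-262543723 (plus) for Dusp5, with both motifs in capitals.
Egr1: CCATATATGGccatgtaCGTCA
Egr2: CCATATATGGgcagcgaCGTCA
Dusp5: CCTTATATGGgcactcaCGTCA

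Dusp5 read 54.7 and 55.8 with vehicle and 3071 and 3182 with PDGF-BB, and was called higher (adjusted p by limma 0.000433). Its vehicle readings were below the highest of the bacterial control probe sets described next, and the rise over that control was at least 46.1-fold. The spacing was read off the windows of Egr1 and Egr2, so the calls of these genes say nothing about it. Among measured genes other than the members, 17 of 142 genes with a CArG box in this window were called higher (12%) and 29 lower (20.4%). Of 3141 genes with a TGACG core 15.1% were called higher and 17% lower, and of 1029 with an EGR site 17.7% and 14.4%, beside 12.7% higher and 15.4% lower of all 10684 measured genes with a window. These shares are descriptions, with no test.

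To place the members against background, their intensities were set beside 27 probe sets for Bacillus transcripts, which no rat RNA should match; whether these transcripts were spiked in is not stated, so the yardstick is rough. The highest of them read 65.6 and 70.1 with vehicle and 80.3 and 76.0 with PDGF-BB, and their median lay between 11.7 and 15.1. The median probe set intensity per array was 132 to 148. Smooth muscle markers were present, with 10 of 10 above 80.3 in at least 1 group and summed intensities of 74584 to 76136 with vehicle and 70937 to 72724 with PDGF-BB; 3 of them were called lower. Of the markers of other cells, 1 of 6 endothelial, 2 of 7 macrophage and leukocyte, 4 of 6 adventitial fibroblast and 0 of 4 Schwann cell genes were above it. The endothelial sum was 344 to 355 with vehicle and 269 to 278 with PDGF-BB, that of macrophage and leukocyte genes 1645 to 1696 and 1401 to 1518, that of fibroblast genes 416 to 441 and 407 to 449, and that of Schwann cell genes 63.2 to 96.7 and 70.1 to 88.9. Most of the macrophage and leukocyte sum was Cd14, at 1395 and 1473 with vehicle and 1292 and 1126 with PDGF-BB. Aif1, the other gene of that list above 80.3, had means of 82.8 with vehicle and 92.3 with PDGF-BB. The higher group mean was 82.4 for Pdgfra, 84.0 for Pi16, 108 for Lum and 138 for Ly6c, the 4 fibroblast genes above 80.3. Ly6c was called higher and Esam lower among these markers, and their part in the results was not tested.

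Of the 8 member probe sets, 4 were called higher with PDGF-BB at a limma adjusted p under 0.05, 0 lower and 4 not called, where 11.4% of all probe sets were called higher and 12.9% lower. The 4 lay in Egr1, Egr2 (both probe sets) and Egr4 (1 of 2). Egr3, Nab1 and Nab2 were not called. An array reads a pool of cells, so more cells with a transcript and more transcript per cell cannot be told apart.

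**Figure D2:**
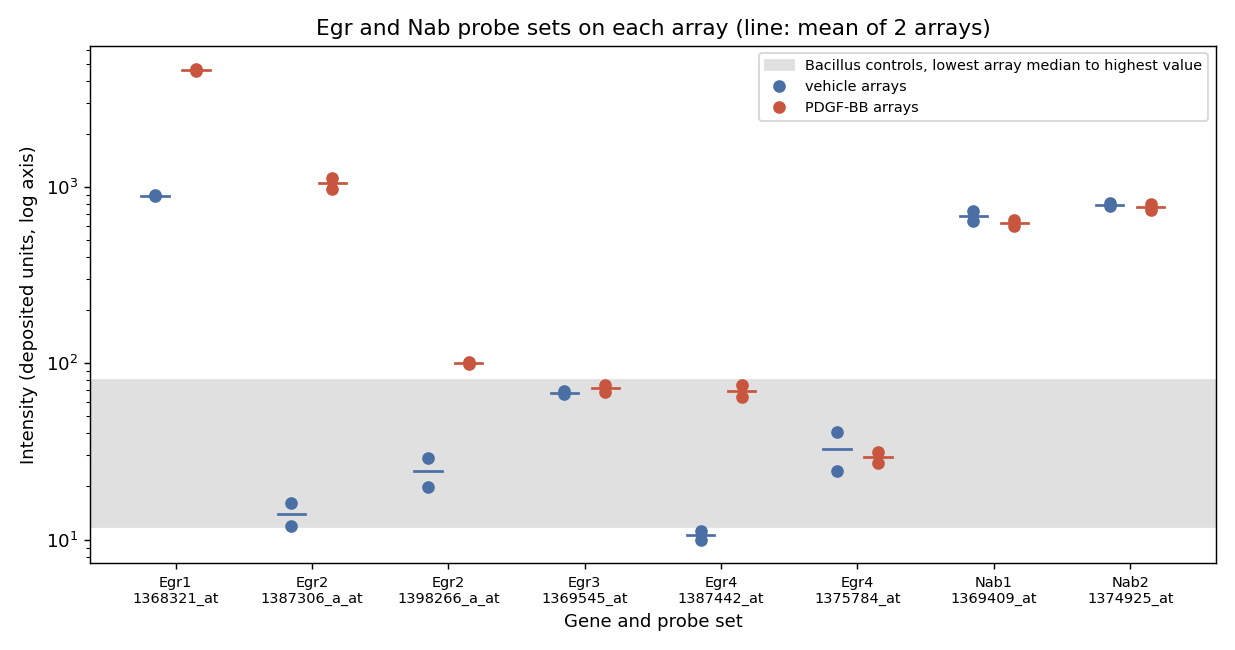
Intensity on each array (points, log axis) and the mean of the 2 arrays (lines) for the 8 probe sets, with vehicle in blue and PDGF-BB in red. The grey band runs from the lowest array median of the Bacillus controls, 11.7, to their highest value, 80.3; Egr1, Nab1 and Nab2 lie above it in both groups, and Egr2 leaves it with PDGF-BB.

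Egr1 was the Egr gene with a reading well above background in the vehicle group. Its probe set, 1368321_at, read 882 and 902 with vehicle and 4540 and 4628 with PDGF-BB. The groups were far apart and the arrays within each were close, differing by 0.03 on the log2 scale in either group, against a median gap over all probe sets of 0.10 between the vehicle arrays and 0.17 between the PDGF-BB arrays. The mean rose from 892 ± 14.0 to 4584 ± 62.2 (SD, n = 2), or 11.1 and 57.1 times the background yardstick. On the scale of log2(intensity + 16) the change was 2.34 (SE 0.09, 95% confidence interval 2.11 to 2.57, adjusted p by limma 0.000710), which is 5.07-fold. Within its array the probe set stood at the 82.0th percentile with vehicle on either array and at the 97.3rd and 97.4th with PDGF-BB. Its change was in place 218 of the 23707 when ordered by increase. Egr1 was thus readable on both vehicle arrays, from cultures kept 72 h without serum.

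Egr2 went from within the control range to well above it. Probe set 1387306_a_at read 11.9 and 16.2 with vehicle, close to the median of the Bacillus controls, and 1121 and 973 with PDGF-BB. Both PDGF-BB arrays were above every control reading and both vehicle arrays below the highest one. The means were 14.0 ± 3.00 and 1047 ± 104 (SD, n = 2), 0.175 and 13.0 times the yardstick, with the place within the array moving from the 13.0th and 17.6th percentile to the 83.3rd and 83.8th. With the vehicle reading held at the highest control of each array, the rise was at least 15.4-fold. On the scale of log2(intensity + 16) the change was 5.15 (SE 0.13, interval 4.80 to 5.49, adjusted p by limma 0.000433), in place 14 of all probe sets by increase. The size of that value depends on the offset, since vehicle Egr2 lies within the control range: an offset of 64 gave 3.83 and an offset of 1 gave 6.13, with the call kept.

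The other Egr2 probe set, 1398266_a_at, rose in the same direction and much less. It read 29.2 and 20.0 with vehicle and 102 and 98.6 with PDGF-BB, so that its PDGF-BB arrays lay only a little above the highest control. Its means were 24.6 ± 6.49 and 100 ± 2.35 (SD, n = 2), its log2 fold change was 1.53 (SE 0.14, interval 1.15 to 1.90, adjusted p by limma 0.00486), and the rise over the highest control on the vehicle arrays was at least 1.48-fold. The change was 0.89 with an offset of 64 and 2.01 with an offset of 1. Both probe sets carry the suffix a, given to probes shared by several transcripts of 1 gene, and they were designed from different sequence records. Of 451 genes with 2 probe sets and at least 1 called higher, 219 (48.6%) had both called. The place of Egr2 among the largest increases rests on 1387306_a_at.

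Egr3 stayed at the level of the brightest controls. Its probe set, 1369545_at, read 69.2 and 66.7 with vehicle and 74.7 and 69.0 with PDGF-BB, with a vehicle array between the PDGF-BB arrays. It exceeded the highest control of its own array on 1 of 4 arrays, a vehicle array. The log2 fold change was 0.07 (SE 0.09, interval -0.18 to 0.31, adjusted p by limma 0.660). At these intensities the data give only a bound on Egr3 in either group, not a statement that the transcript was absent or that it did not move earlier.

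The probe sets of Egr4 disagreed. 1387442_at read 11.1 and 9.98 with vehicle and 64.1 and 75.1 with PDGF-BB, without overlap, and was called higher with a log2 fold change of 1.69 (SE 0.11, interval 1.40 to 1.97, adjusted p by limma 0.00228). None of these 4 readings exceeded the highest control of its array, so the rise took place inside the control range and no fold is given for it. Its size was 0.84 with an offset of 64 and 2.61 with an offset of 1. The other probe set, 1375784_at, designed from an expressed sequence tag, read 24.6 and 41.0 with vehicle and 31.5 and 27.0 with PDGF-BB. Here the vehicle arrays enclosed the PDGF-BB arrays, and the log2 fold change was -0.09 (SE 0.19, interval -0.60 to 0.43, adjusted p by limma 0.786), a value that was 0.16 without vehicle replicate 2.

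The corepressor genes were readable throughout and were not called. Nab1, probe set 1369409_at, read 643 and 729 with vehicle and 650 and 596 with PDGF-BB, and its groups overlapped. The means were 686 ± 61.2 and 623 ± 38.2 (SD, n = 2), 8.54 and 7.75 times the yardstick. Its log2 fold change was -0.13 (SE 0.11, interval -0.43 to 0.16, adjusted p by limma 0.451). Nab2, probe set 1374925_at, read 804 and 777 with vehicle and 804 and 737 with PDGF-BB, with PDGF-BB 1 beside vehicle 1. Its means were 791 ± 19.4 and 771 ± 47.3 (SD, n = 2), 9.84 and 9.59 times the yardstick. The log2 fold change of Nab2 was -0.04 (SE 0.10, interval -0.29 to 0.22, adjusted p by limma 0.819), and its sign turned with array medians subtracted (0.04), cyclic loess (0.01) and without PDGF-BB replicate 2 (0.02). The intervals leave room for changes between 0.741-fold and 1.12-fold in Nab1 and between 0.816-fold and 1.16-fold in Nab2, and the whole of both lies below the interval of Egr1, 4.32-fold to 5.94-fold.

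**Figure D3:**
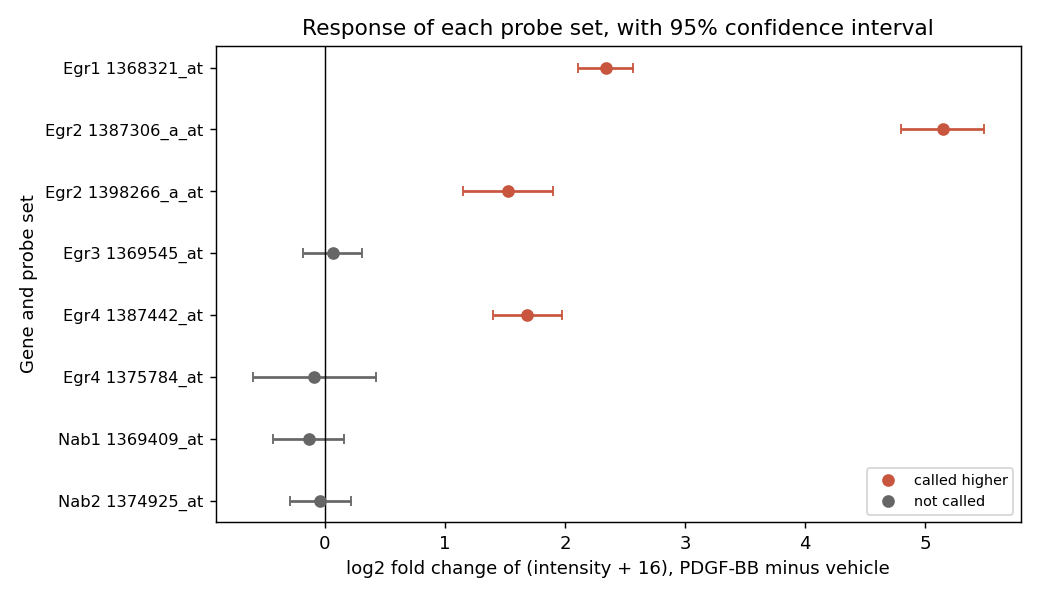
Change of each probe set, PDGF-BB minus vehicle, on the scale of log2(intensity + 16), with bars for the 95% confidence interval of the limma fit and calls in red. Egr2 1387306_a_at stands at 5.15, a size that depends on the offset, Egr1 at 2.34, and the 4 probe sets not called lie between -0.13 and 0.07 with intervals that cross 0.

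Responses were also compared within arrays, as the log2 ratio of 2 members on the same array, over 7 pairs of leading probe sets (those with the highest mean). The ratio of Egr2 to Egr1 was -5.01 and -4.83 with vehicle and -2.003 and -2.23 with PDGF-BB, a difference of 2.80 (SE 0.14) between the groups. Its size is set by the offset, since vehicle Egr2 lies within the control range, and was 1.55 with an offset of 64 and 3.77 with an offset of 1. The ratio of Egr3 to Egr1 moved by -2.28 (SE 0.07), from -3.40 and -3.47 to -5.65 and -5.77. The ratio of Egr4 to Egr1 moved by -0.66 (SE 0.09), but by 0.25 with an offset of 1, so its direction depended on how values within the control range were treated. The ratio of Nab2 to Nab1 moved by 0.10 (SE 0.11) with overlapping groups. All 6 pairs of Egr genes hold readings within or at the control range, those of Egr3, Egr4 or vehicle Egr2, so their ratios are descriptions. For each of them the exact two-sided permutation p was 0.333, the smallest that 4 arrays allow (adjusted over the 7 pairs, 0.389), and for the Nab pair p was 1, so this test could not separate any pair.

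The genes with the profile most like Egr1 were found over the 4 arrays, by the root mean squared difference between log2 values taken from their own vehicle mean. The search covered 11655 probe sets with 1 gene symbol, none of a member, and a mean above background in at least 1 group. Nearest to Egr1 were Arf2 (0.019), Klf2 (0.019) and Sat1 (0.028), with log2 fold changes of 2.35, 2.35 and 2.37. Klf2 is a Kruppel-like factor gene, Arf2 encodes a small GTPase of vesicle traffic and Sat1 an enzyme of polyamine breakdown. With 2 groups of 2 arrays, likeness here amounts mainly to a similar size of change. For Egr2 and Egr4, whose size of change depends on the offset, no nearest profiles are given.

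Factors and kinases that act upstream of Egr transcription were looked at next. The genes of this list and of the other lists below were assembled from general knowledge, but with earlier results of these data known. The counts of calls in these lists are therefore descriptions. Each gene stands for itself through its probe set with the highest mean. Of 9 measured, 3 were called higher, 0 lower and 6 not called, where 12.4% of all genes were called higher and 15.3% lower, and the median log2 fold change was 0.16, against -0.03 over all genes. Elk3, a ternary complex factor that can repress, read 735 and 782 with vehicle and 1919 and 1738 with PDGF-BB and rose by 1.25 (SE 0.10, adjusted p by limma 0.00380). Rps6ka3, an ERK-activated kinase (RSK2), rose by 1.13 (SE 0.14), and Map2k1, the ERK kinase MEK1, by 0.58 (SE 0.09). Elk4, the ternary complex factor SAP-1, was at 0.49 (SE 0.13, adjusted p by limma 0.0577). Elk4 read 304 and 308 with vehicle and 480 and 393 with PDGF-BB, without overlap. It was called higher in 6 alternatives that kept all 4 arrays (adjusted p by limma 0.0102 to 0.0268). With these, 4 upstream genes were called higher, where 13.9% to 23.4% of all probe sets were called higher. Map2k1 lost its call whichever array was left out, where its log2 fold change was 0.53 to 0.63. Such a fit leaves 1 array in a group, and each of them called fewer of all probe sets than the main fit. Rps6ka3 lost its call without the first vehicle array (0.0640) and without the first PDGF-BB array (0.0514), where 1 of the 3 genes was left.

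Among genes described as EGR-responsive in vascular or other cells, 10 of 23 measured were called higher, 0 lower and 13 not called, where 12.4% of all genes were called higher and 15.3% lower. The median log2 fold change of these 23 was 0.29, against -0.03 over all genes. It was 0.13 with an offset of 64 and 0.15 with quantile normalization. Among the genes left with bright probe sets only it was 1.06, but that filter also keeps genes bright in the PDGF-BB group alone. Most of these genes answer to other factors as well. Gdf15, Tnf, Plau, Hpse, Pdgfc, Cdk5r1 and Faslg, outside the rule for named genes, lay below the highest control on every array. For these, the lack of a call is not a reading of no change. Cd44, the hyaluronan receptor, read 154 and 157 with vehicle and 3026 and 2835 with PDGF-BB, a rise of 4.10 (SE 0.09, adjusted p by limma 0.000433). Flt1, a receptor for VEGF, rose from 57.3 and 44.4, readings below the highest control, to 875 and 758, at least 12.0-fold over that control (adjusted p by limma 0.000785), with 2 of its 3 probe sets called. Arc, a cytoskeletal gene and an Egr target in neurons, likewise rose from below the highest control, 62.4 and 47.9, to 648 and 577, at least 9.01-fold over it (adjusted p by limma 0.00103). Icam1, the leukocyte adhesion molecule, rose by 2.18 (SE 0.11). The remaining 6 called genes, named here after their values were seen, were Fgf2, F3 (tissue factor), Tgfb1, Pdgfa (a PDGF chain) and Ccnd1 (cyclin D1), with log2 fold changes of 1.42, 1.40, 1.30, 0.81 and 0.47, and Atf3, whose vehicle readings of 52.7 and 52.9 lay below the highest control and which rose at least 2.47-fold over it. Ccnd1 was not called with an offset of 1 (adjusted p by limma 0.0636). Calls ended without 1 array for Pdgfa (log2 fold change 0.74 to 0.89 in those fits), Tgfb1 (1.30 and 1.31) and Ccnd1 (0.41 to 0.52). Fewer of all probe sets were called in each such fit than in the main fit.

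Among partners, corepressor complex subunits and factors that compete for GC-rich sites, 4 of 19 measured were called higher, 1 lower and 14 not called, where 12.4% of all genes were called higher and 15.3% lower. The median log2 fold change of these 19 was -0.01, against -0.03 over all genes. Sp3, Nfatc2 and Wt1, outside the rule for named genes, lay below the highest control on every array by their leading probe sets. For these, the lack of a call is not a reading of no change. Sp1, outside the rule for named genes, was not called by its leading probe set, but 1 of its 3 probe sets was called higher. With the probe set of smallest p for each gene, a choice that leans towards calls, 5 of the 19 were called higher. Nfatc1, an NFAT factor of a family that works with EGR proteins, read 48.2 and 38.6 with vehicle and 247 and 213 with PDGF-BB, and was called higher (adjusted p by limma 0.00242). Its vehicle readings lay below the highest control, over which the rise was at least 3.38-fold. Jun, an AP-1 subunit, rose by 1.25 (SE 0.11), Cebpb, a leucine-zipper factor, by 1.23 (SE 0.09), and Sp4, an Sp-family factor, by 0.81 (SE 0.09). The vehicle readings of Sp4, 69.3 and 72.6, lay just above the highest control of their own arrays, 65.6 and 70.1. They were below the 80.3 used as the yardstick. Sp4 missed the threshold without vehicle replicate 1 (log2 fold change 0.78) and without vehicle replicate 2 (0.83). The member called lower was the coactivator gene Ep300, which fell by 0.54 (SE 0.11, adjusted p by limma 0.0291). It missed the threshold with an offset of 1 (adjusted p by limma 0.0585). The call also ended without the first vehicle array (log2 fold change -0.56), the second vehicle array (-0.52) or the second PDGF-BB array (-0.45). Ep300, of whose 2 probe sets 1 was called lower, is outside the rule for named genes. For Chd4, the NuRD subunit that NAB2 recruits, also outside that rule, the log2 fold change was -0.15 (SE 0.11, adjusted p by limma 0.423).

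**Figure D4:**
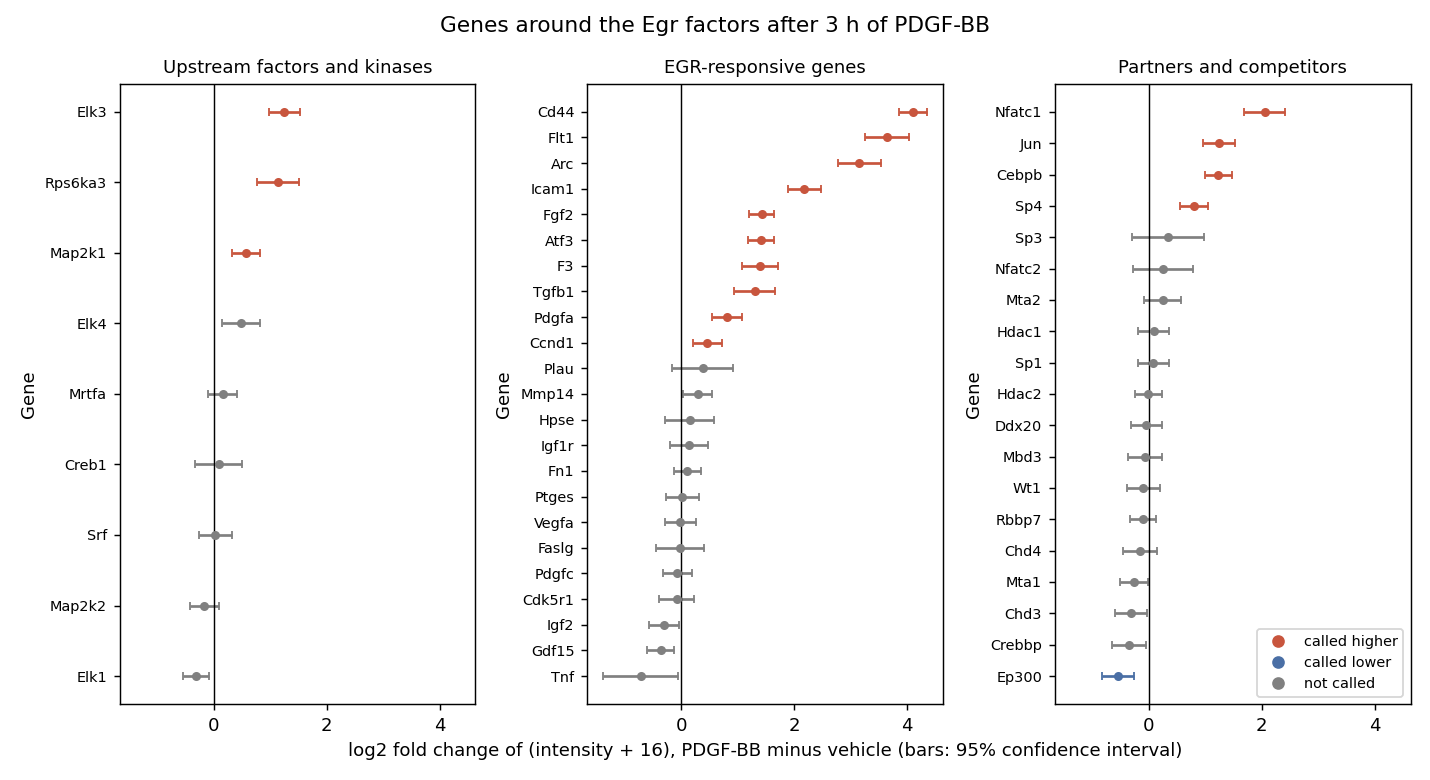
Change of each measured gene in the 3 lists, on the scale of log2(intensity + 16), PDGF-BB minus vehicle, with bars for the 95% confidence interval of the limma fit. The vehicle readings of Flt1, Arc, Atf3 and Nfatc1 lie below the highest control, so the size of their change depends on the offset. Those of Sp4 lie just above it. Gdf15, Tnf, Plau, Hpse, Pdgfc, Cdk5r1, Faslg, Sp3, Nfatc2 and Wt1 lie below it on every array. Calls are 3 of 9 upstream genes, 10 of 23 EGR-responsive genes and 4 of 19 partners and competitors higher (red), and Ep300 lower (blue).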

How the data were processed

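The authors deposited probe set intensities on a linear scale, 1 column per array, as the values show; biotin-labelled cRNA was hybridised to Affymetrix arrays, per the labels. Which software, background correction and scaling lie behind these intensities is not given in the sources used here, and the table holds no detection calls. Of 23764 probe sets, 57 Affymetrix controls were left out. A 2016 platform annotation gave 1 symbol for 17279 of the rest, several for 373 and none for 6055, and the 8 member probe sets kept their symbols in the RefSeq table. Values were tested as log2(intensity + 16), which understates changes of dim probe sets, by limma (version 3.58.1, functions lmFit and eBayes) under R 4.3.3, two-sided. P-values were adjusted by the Benjamini-Hochberg method across all 23707 probe sets. The number of arrays limits the precision. The procedure was tested on simulated data. Members and lists were chosen with earlier results of these data known. Named genes are all members, the 4 genes of smallest p in each list and the 3 nearest profiles per called member, given for Egr1 alone because the others' vehicle readings lie within the control range; exceptions are marked. Groups came from the sample titles. Alternatives covered the offset, scaling, a filter, the variance prior, the replicate number, each array and, for the lists, the probe set that stands for a gene.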

Additional observations from a re-analysis of the deposited data

How the results depend on the processing

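The 4 probe sets called higher (Egr1, both of Egr2 and 1387442_at of Egr4) kept their call in the 11 alternatives other than the filter to bright probe sets, the highest adjusted p by limma being 0.0468, and no member was called lower in any. That filter left out Egr3 and both Egr4 probe sets, and Egr2 passed it only through the PDGF-BB group, so it does not bear on the Egr2 calls; Egr1 kept its call under it. The log2 change of Egr2 against Egr1 was 1.55 with an offset of 64 and 3.77 with an offset of 1. The direction of 1375784_at turned when single arrays were left out (-0.33 to 0.16), and that of Nab2 with array medians subtracted (0.039), cyclic loess (0.013) and single arrays left out (-0.099 to 0.024). The response of Egr4 against Egr1 turned to 0.25 with an offset of 1, and that of Nab2 against Nab1 ranged from -0.016 to 0.211 without single arrays. Leaving out a single array leaves 1 array in a group, assumed to vary like the other. Calls in the lists moved in such fits, and each called fewer of all probe sets than the main fit. Calls of lower genes also moved with an offset of 1 (1 EGR-responsive, 0 partners), an offset of 64 (1 upstream, 3 partners), quantile normalization (1 EGR-responsive, 3 partners), cyclic loess (1 EGR-responsive, 2 partners), bright probe sets only (1 upstream, 1 EGR-responsive, 4 partners) and an intensity trend in the prior (4 partners). The main fit called 3067 of all 23707 probe sets lower. An offset of 1 called 2092 lower, an offset of 64 3976, quantile normalization 4307 and cyclic loess 3474. The intensity trend called 3959 lower, the replicate block 2579, and bright probe sets only 4139 of 14579. The EGR-responsive gene called lower was Gdf15 with an offset of 1, quantile normalization and cyclic loess. It was Tnf with the replicate block and Igf2 with bright probe sets only. Gdf15 (means 24.6 with vehicle and 15.6 with PDGF-BB) and Tnf (22.4 and 8.1) lay below the highest control on every array, and Igf2 (124 and 97.0) above it. These genes are outside the rule for named genes. The cause of the moves was not tested. Deviations of same-numbered arrays from their group means had a correlation of -0.098 over 23707 probe sets. It was -0.157 over the 13321 with a mean above 80.3 in both groups. With 2 arrays per group this does not settle whether the replicate numbers mark pairs. With the replicate block, 4 member probe sets were called higher, 1 EGR-responsive gene was called lower and Ccnd1 had an adjusted p of 0.0687. Readings within the control range limit what can be said of Egr3, Egr4 and vehicle Egr2.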
